A study of Phaseolus vulgaris with 18 samples.

Results

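Seed and pod protease inhibitors of the common bean are represented here by 3 genes of the 27420 in the deposited expression table. They are Phvul.001G264400, described as phytocystatin 2 (CYS2), Phvul.005G032000, described as a serine protease inhibitor of the potato inhibitor I type, and Phvul.004G129600, described as a Kunitz family trypsin and protease inhibitor. The 3 genes were chosen by their measured levels in these libraries, so their levels and differences are given as a description, with no test, and only measures of other genes were tested. All libraries came from Phaseolus vulgaris 4004, with the same tissue and stage labels within a group and no treatment or transgene named. Grain was sampled at 10, 15 and 20 DAF, and pod at 10, 15 and 20 DAF, which is read here as days after flowering since the labels do not spell it out. Each of the 6 groups held 3 libraries, and the labels do not say whether these were separate plants, or whether seeds were removed from the pods before extraction.

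Protease inhibitors bind the active site of protein-cutting enzymes and block it. Phytocystatins inhibit cysteine proteases related to papain, a class that includes enzymes of the plant vacuole that process and break down stored protein. Potato type I inhibitors act on serine proteases such as chymotrypsin and subtilisin, and in tomato leaves they are induced by wounding. Kunitz inhibitors act mostly on trypsin-like serine proteases, and in soybean seeds a Kunitz trypsin inhibitor is an abundant protein that lowers the feed value of raw beans. Legume seeds are known to store inhibitors of several families beside their storage proteins.

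Values are TPM, transcript abundances scaled for transcript length and to a fixed total, so that levels of different genes can be set side by side. The depth behind the TPM values is unknown. The deposited TPM of pod 15 DAF replicate 3 summed to 436072, against 823001 to 999633 in the other 17 libraries. In correlation across genes, the third grain 20 DAF library lay closer to a grain 15 DAF library (r = 0.968) than to its own group (r = 0.958 at best), and pod 10 DAF library c2 lay closer to a pod 15 DAF library (r = 0.938) than to its own group (r = 0.929 at best). The pod 10 DAF columns carry other numbers than the sample titles and are called c1, c2 and c3. The tissue labels fit the defining markers: 8 storage cupin genes summed to 157 to 135265 TPM in grain libraries and 15.2 to 72.6 TPM in pod libraries, and none of the 8 was at 0 in a whole group.

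CYS2 was a grain transcript at every stage. Its level was 77.4, 368 and 447 TPM in grain at 10 DAF, 1363, 1066 and 1198 TPM at 15 DAF, and 2120.3, 2069 and 1979 TPM at 20 DAF. In pods it was 0.343, 0.147 and 1.51 TPM at 10 DAF, 0.515, 1.18 and 1.54 at 15 DAF, and 0.667, 0.743 and 1.61 TPM at 20 DAF. The 3 grain stages did not overlap each other, the 3 pod stages all overlapped, and every grain library lay far above every pod library. At 20 DAF the mean in grain was 2056 ± 71.5 TPM (SD, n = 3), and CYS2 ranked 40, 41 and 40 among all genes of those libraries.

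On the log2(TPM + 1) scale the CYS2 difference in grain was 3.13 (SE 0.48) between 20 and 10 DAF, 2.36 (SE 0.48) between 15 and 10 DAF and 0.77 (SE 0.48) between 20 and 15 DAF. In grain minus pod the difference was 7.22 at 10 DAF, 9.21 at 15 DAF and 10.03 at 20 DAF. Because 1 TPM is added first, differences that involve values near 0, such as all pod levels of CYS2, come out smaller than the ratio of the TPM values. The first grain library at 10 DAF held the lowest CYS2 of that tissue, and without it the difference between 20 and 10 DAF was 2.34. The same library had the lowest summed storage cupins (157 TPM, against 1209 and 2274 TPM in the other grain libraries at 10 DAF) and the lowest summed oleosins (301 TPM, against 715 and 878 TPM), the coat proteins of seed oil droplets. The part of these markers in the CYS2 values was not tested. In whole tissue, a change in the number of cells of a type and a change in RNA per cell cannot be told apart.

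The 5 described genes with the pattern most like CYS2 were sought by the mean absolute difference over the 6 group means of log2(TPM + 1), each gene centred on its own mean, among 8411 genes with at least 20 TPM in a group. They were a cupin (Phvul.002G027900, difference 0.16), oleosin 1 (Phvul.007G138300, 0.24), a papain family cysteine protease (Phvul.007G099600, 0.28), the seed vacuole aquaporin alpha-TIP (Phvul.004G136000, 0.30) and the peroxiredoxin PER1 (Phvul.002G189300, 0.33). The cupin stood at 422 TPM in grain at 10 DAF, 1861 TPM at 15 DAF and 2306 TPM at 20 DAF, and at 1.51 to 1.57 TPM in the pod groups.

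The potato type I inhibitor was low in young grain and among the most abundant transcripts of older grain. It had 0.677, 3.43 and 5.48 TPM in grain at 10 DAF, 822, 434 and 482 TPM at 15 DAF, and 3982, 1906 and 1771 TPM at 20 DAF. In pods it had 0.223, 0.477 and 0.655 TPM at 10 DAF, 0.084, 1.41 and 0.999 at 15 DAF, and 0.433, 0.845 and 1.90 TPM at 20 DAF. The grain stages did not overlap, and the first library was the highest at both 15 and 20 DAF. The pod stages overlapped throughout, and grain at 10 DAF overlapped pod at 15 and at 20 DAF but stood just above pod at 10 DAF.

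The mean in grain was 2553 ± 1239 TPM at 20 DAF and 3.20 ± 2.41 TPM at 10 DAF (SD, n = 3 each), a ratio of means of 799. The log2 difference was 9.35 (SE 0.46) between 20 and 10 DAF, 7.26 (SE 0.46) between 15 and 10 DAF and 2.09 (SE 0.46) between 20 and 15 DAF. The larger step lay between 10 and 15 DAF, as for CYS2. The gene ranked 74, 158 and 153 among all genes in grain libraries at 15 DAF and 24, 44 and 42 at 20 DAF. The log2 difference of grain minus pod was 1.34 at 10 DAF, 8.33 at 15 DAF and 10.24 at 20 DAF. At 10 DAF it depended on the pseudocount, with a log2 difference of 2.26 with 0.1 TPM added in place of 1.

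**Figure D1:**
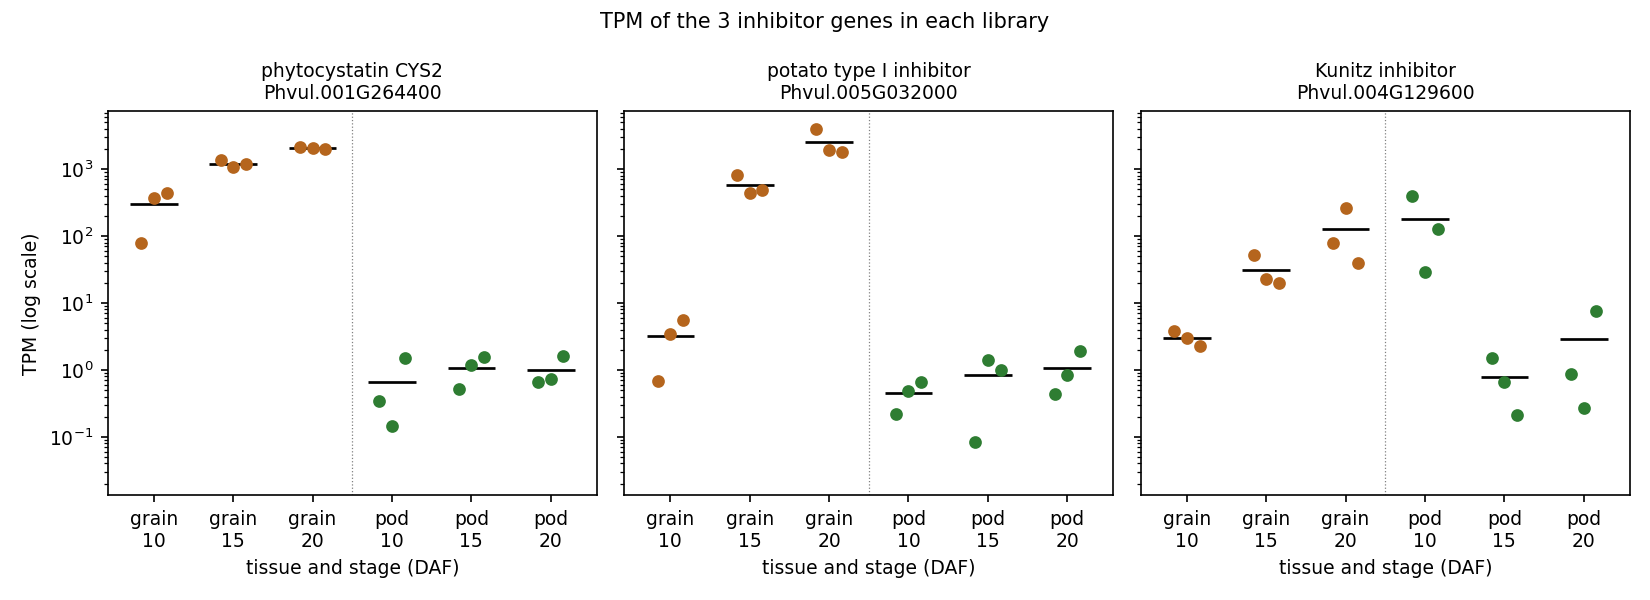
TPM (log axis) of the 3 inhibitor genes in each library, with grain (brown) left of pod (green) and stages in DAF. Points are libraries and bars are group means; CYS2 and the potato type I inhibitor reach 1771 to 3982 TPM in grain at 20 DAF and stay at or below 1.90 TPM in pods, whereas the Kunitz inhibitor has high levels in grain at 20 DAF and in pod at 10 DAF.

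Genes most like the potato type I inhibitor were a Rossmann-fold protein (Phvul.003G091300, mean absolute difference 0.40), the storage cupin PAP85 (Phvul.007G059800, 0.54), the late embryogenesis protein LEA4-5 (Phvul.001G142000, 0.67), lipoxygenase 1 (Phvul.005G157000, 0.72) and a protein of unknown function (Phvul.006G170000, 0.80). PAP85 had 2.03, 16.3 and 30.1 TPM in grain at 10 DAF, with the lowest value in the first library, which also held the least potato type I inhibitor. Lipoxygenase 1 was near its 20 DAF mean of 1303 TPM already at 15 DAF (1412 TPM), while LEA4-5 had 478 TPM at 15 DAF and 11946 TPM at 20 DAF.

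The Kunitz inhibitor was high in both tissues, at opposite ends of the sampled time. Its level was 3.8, 2.95 and 2.25 TPM in grain at 10 DAF, 51.9, 22.5 and 20.0 TPM at 15 DAF, and 77.6, 265 and 39.1 TPM at 20 DAF. In pods it was 391, 28.6 and 127 TPM at 10 DAF, 1.5, 0.670 and 0.214 at 15 DAF, and 0.865, 0.271 and 7.52 TPM at 20 DAF. Grain at 10 DAF lay below both later grain stages, which overlapped each other, and pod at 10 DAF lay above both later pod stages, which also overlapped. The spread within groups was wide: the highest library was 6.8 times the lowest in grain at 20 DAF and 13.7 times the lowest in pod at 10 DAF.

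In order of mean, pod at 10 DAF (182 ± 187 TPM) came first and grain at 20 DAF (127 ± 121 TPM) second, and their libraries overlapped. Grain at 15 DAF followed (31.5 ± 17.7 TPM) and overlapped both. Grain at 10 DAF (3.00 ± 0.779 TPM) and pod at 20 DAF (2.89 ± 4.03 TPM) overlapped each other, and pod at 15 DAF (0.796 ± 0.654 TPM) was lowest (SD, n = 3 for each). On the log2 scale the difference between 20 and 10 DAF was 4.58 (SE 0.81) in grain and -5.39 (SE 0.81) in pod. The difference between 15 and 10 DAF was 2.91 in grain and -6.05 in pod (SE 0.81 each). In grain minus pod the sign turned with stage, at -4.85 for 10 DAF, 4.11 for 15 DAF and 5.11 for 20 DAF. Without pod 10 DAF library c2, the lowest of its group, the pod difference between 15 and 10 DAF was -7.03, and without library c1, the highest, it was -5.16. Without the second grain library at 20 DAF the difference between 20 and 15 DAF in grain was 0.92, against 1.67 with it.

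Seed markers were measured in the same pod libraries, and their part in the pod levels was not tested. At 10 DAF the 8 cupins summed to 27.8, 15.2 and 72.2 TPM and the 4 oleosins to 43.3, 25.2 and 47.1 TPM in pod libraries c1, c2 and c3, where the Kunitz inhibitor had 391, 28.6 and 127 TPM. Library c2 was lowest in all 3 measures, while c1 was highest for the Kunitz inhibitor and c3 for both marker sums. For CYS2, whose pod levels were all at or below 1.61 TPM, the highest library of each pod stage also had the highest cupin sum (72.2, 72.6 and 47.2 TPM). The oleosin sums ran in the opposite order to CYS2 at the later stages, with 18.5, 11.4 and 9.41 TPM at 15 DAF and 83.6, 64.1 and 36.9 TPM at 20 DAF in pod replicates 1, 2 and 3.

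The genes most like the Kunitz inhibitor by the same measure were 2 dirigent-like genes (Phvul.005G032600, mean absolute difference 0.51, and Phvul.005G032500, 0.66), the transcription factor gene TINY2 (Phvul.001G073800, 0.69), a gene of the bifunctional inhibitor and lipid-transfer superfamily (Phvul.008G113900, 0.88) and another Kunitz gene (Phvul.004G137600, 0.88). Phvul.005G032600 had 40.6, 10.4 and 12.1 TPM in pod at 10 DAF, was listed at 0 in all 6 later pod libraries, and had 40.1, 74.6 and 36.2 TPM in grain at 20 DAF. As for the Kunitz inhibitor, its highest library was c1 in young pod and the second library in grain at 20 DAF.

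Together the 3 genes made up 91.5%, 75.8% and 85.5% of the summed TPM of 36 genes described as protease inhibitors in the grain libraries at 20 DAF, 78.1%, 72.8% and 74.4% at 15 DAF, and 6.59%, 37.3% and 31.6% at 10 DAF. In pods their share was 21.7%, 2.10% and 14.8% at 10 DAF, where the Kunitz inhibitor carried nearly all of it, and between 0.233% and 1.27% at 15 and 20 DAF. The sum over the 36 genes was 1227 ± 217 TPM in grain at 10 DAF, 2413 ± 402 TPM at 15 DAF and 5594 ± 1162 TPM at 20 DAF. In pods it was 1354 ± 464 TPM at 10 DAF, 753 ± 405 TPM at 15 DAF and 812 ± 49.3 TPM at 20 DAF (SD, n = 3 for each). The lowest sum, 297 TPM, came from pod 15 DAF replicate 3, whose TPM of all genes also summed low. Shares and sums hold for this list only. It leaves out the bifunctional inhibitor and lipid-transfer superfamily and genes with no description, and no gene in it is described as a Bowman-Birk inhibitor.

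**Figure D2:**
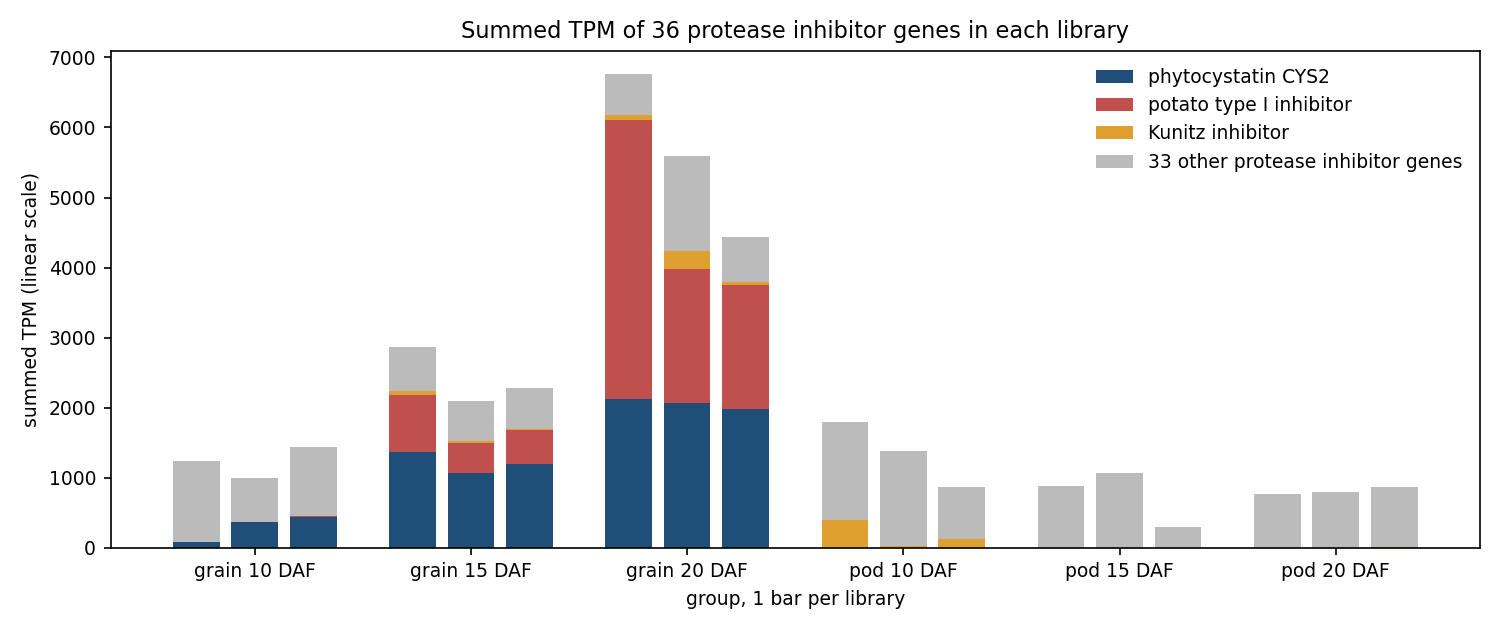
Summed TPM (linear axis from 0) of 36 protease inhibitor genes, 1 bar per library, grain left of pod, split into the 3 genes described here and the 33 others (grey). CYS2 and the potato type I inhibitor fill most of the grain bars at 15 and 20 DAF, and the other genes most of every pod bar.

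The 33 other inhibitor genes were 17 Kunitz genes, 9 cystatins, 2 potato type I genes, 1 serpin and 4 further genes whose descriptions carry the words, of which 2 are Kazal-type and 2 are related to inter-alpha-trypsin inhibitor heavy chains. Of these, 21 had at least 1 TPM in at least 3 libraries and were tested with limma, and 12 did not. Calls needed an adjusted p (Benjamini-Hochberg, over all 19861 genes tested) under 0.05 together with a log2 difference of 1 or more in size. In grain at 20 against 10 DAF, 2 of the 21 were higher and 8 lower, beside 2.67% higher and 52.9% lower of all genes tested. Their median difference was -0.17, against -1.08 for all genes. After median-ratio scaling, a step that takes a shift common to most genes out of the values (median over all genes -0.10), 5 were higher and 2 lower, beside 8.57% and 16.8% of all genes.

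In pod at 20 against 10 DAF, 0 of the 21 were higher and 1 was lower by limma (all genes 5.38% and 6.72%), and with no minimum difference 1 was higher. Their median was -0.26, against 0.10 for all genes. In grain against pod at 10 DAF, 7 were higher and 3 lower (all genes 17.8% and 16.8%), with a median of -0.47 against 0.02. At 20 DAF 6 were higher and 4 lower (all genes 6.25% and 56.7%), with a median of 0.22 against -1.18, and after median-ratio scaling 11 were higher and 1 lower (all genes 14.4% and 20.2%). The difference between tissues in the change between 10 and 20 DAF was called upwards in 2 and downwards in 3 genes, where all genes gave 3.69% and 52.8%, and after median-ratio scaling in 7 and 2, where all genes gave 9.17% and 12.8%.

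Among the other Kunitz genes, 8 of 17 were tested. In grain at 20 against 10 DAF 2 were higher and 2 lower, where 2.67% and 52.9% of all genes were, and in pod 0 were called by limma, where 5.38% of all genes were higher and 6.72% lower. Phvul.004G129500 had the grain course of the Kunitz inhibitor without its pod level. It had 0.263, 0.099 and 0.402 TPM in grain at 10 DAF, 36.7, 8.73 and 13.8 TPM at 15 DAF, and 45.0, 96.2 and 31.2 TPM at 20 DAF. Its pod libraries stood between 0 and 1.27 TPM. It rose in grain (log2 difference 5.39, SE 0.42, limma adjusted p = 1.64e-08). At 10 DAF its difference between grain and pod did not pass (log2 difference -0.54, limma adjusted p = 0.325).

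Phvul.004G137600, also among the genes most like the Kunitz inhibitor, had 17.8, 17.0 and 18.6 TPM in grain at 10 DAF, 115, 50.6 and 60.0 TPM at 15 DAF, and 188, 746 and 91.5 TPM at 20 DAF. In pods it had 123, 18.98 and 25.6 TPM at 10 DAF, 10.0, 16.4 and 0.662 at 15 DAF, and 6.99, 1.12 and 31.0 TPM at 20 DAF. It rose in grain between 10 and 20 DAF (log2 difference 3.65, SE 0.95, limma adjusted p = 0.00274). The same values placed it among the genes most like the Kunitz inhibitor, so that likeness and its tests are not separate results. In pod the difference of -2.31 (SE 0.95) between 20 and 10 DAF did not pass (limma adjusted p = 0.126), and the libraries of these stages overlapped. Pod at 10 DAF lay above pod at 15 DAF. The second grain library at 20 DAF was the highest of its group for this gene, for Phvul.004G129500 and for the Kunitz inhibitor, and pod library c1 was the highest at 10 DAF for this gene and the Kunitz inhibitor.

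Phvul.004G130500 ran the other way in grain. It had 78.0, 57.0 and 45.8 TPM at 10 DAF, 1.54, 6.23 and 10.5 at 15 DAF, and 0.1, 0.214 and 0.177 TPM at 20 DAF, and was listed at 0 in all 9 pod libraries. It fell between 10 and 20 DAF (log2 difference -5.69, SE 0.37, limma adjusted p = 2.42e-09). Phvul.004G129900 was highest at the middle stage, with 3.14, 11.9 and 71.2 TPM in grain at 10 DAF, 56.4, 40.2 and 106 TPM at 15 DAF and 21.4, 9.70 and 15.2 TPM at 20 DAF, and at most 0.243 TPM in pods. Between 20 and 10 DAF its log2 difference was 0.0044 (SE 0.64), and the libraries overlapped. How reads shared between similar Kunitz copies were counted is not given in the sources used here, so values of single copies are uncertain to that extent.

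**Figure D3:**
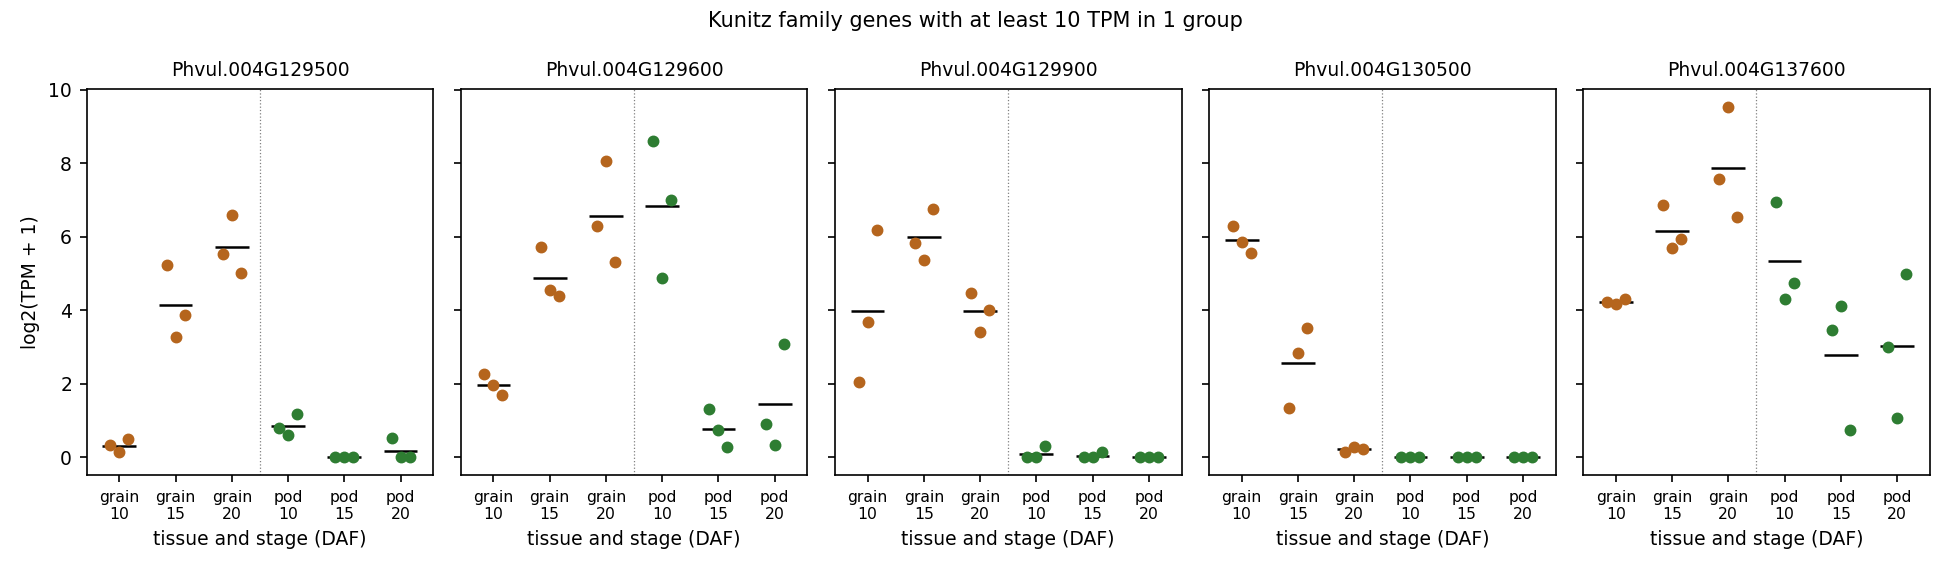
log2(TPM + 1) of the 5 Kunitz family genes with at least 10 TPM in a group, by library (points) and group mean (bars), grain (brown) left of pod (green). Phvul.004G129600 has its highest group mean in pod at 10 DAF, Phvul.004G137600 overlaps there with pod at 20 DAF, Phvul.004G129500 rises in grain, and Phvul.004G130500 is highest in grain at 10 DAF.

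Of 9 other cystatins, 7 were tested, and in grain at 20 against 10 DAF 0 were higher and 4 lower by limma, where 2.67% and 52.9% of all genes were. After median-ratio scaling 2 were higher and 0 lower, where 8.57% and 16.8% of all genes were, so the direction of the calls depended on the scaling. The genes Phvul.003G066500 and Phvul.003G066600 carry the same CYS2 description as Phvul.001G264400. Phvul.003G066500 had 8.45, 25.7 and 14.5 TPM in grain at 20 DAF, against 92.7, 55.8 and 49.0 TPM at 10 DAF, and it fell (log2 difference -2.03, SE 0.44, limma adjusted p = 0.000676), but not after median-ratio scaling (-0.78). Phvul.003G066600 had 8.31, 28.4 and 23.4 TPM in grain at 20 DAF, against 123, 87.8 and 56.8 TPM at 10 DAF. It fell too (log2 difference -2.19, SE 0.49, limma adjusted p = 0.000815), and after median-ratio scaling the difference was -0.94 and not called. Both were higher in grain than in pod at 10 DAF (log2 differences 4.60 and 4.84) and at 20 DAF (3.34 and 3.38), with pod levels of at most 4.42 TPM.

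Phvul.006G018600, described as cystatin B, and the cystatin Phvul.006G142600 had the highest mean levels of the inhibitor list in each pod stage. Phvul.006G018600 averaged 149 ± 75.4 TPM in grain at 20 DAF and 299 ± 192 TPM at 10 DAF, and in pod 376 ± 57.8 TPM at 20 DAF and 534 ± 317 TPM at 10 DAF (SD, n = 3 each). It was called in neither tissue between 20 and 10 DAF. Phvul.006G142600 averaged 48.4 ± 18.2 TPM in grain and 213 ± 20.6 TPM in pod at 20 DAF (SD, n = 3 each), and was lower in grain (log2 difference -2.19, SE 0.37, limma adjusted p = 5.65e-05), though not after median-ratio scaling (-0.77). The second cystatin B gene (Phvul.011G196600) stood between 31.7 and 110 TPM in all libraries of both tissues. Phvul.003G084300 stood between 5.51 and 148 TPM, with its highest value in the second grain library at 20 DAF. The lowest values of Phvul.011G196600 and Phvul.003G084300 were in pod 15 DAF replicate 3, the library with the low TPM sum.

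Of the remaining families, the Kazal-type gene Phvul.009G039700 fell in grain, with 2.13, 4.45 and 9.07 TPM at 20 DAF, against 31.1, 27.8 and 21.8 TPM at 10 DAF (log2 difference -2.31, SE 0.47, limma adjusted p = 0.000363). The other Kazal-type gene, Phvul.007G085900, was the inhibitor that fell in pod, with 37.6, 38.6 and 47.8 TPM at 20 DAF, against 148, 59.7 and 127 TPM at 10 DAF (log2 difference -1.32, SE 0.36, limma adjusted p = 0.0209). The call was lost without c1 (limma adjusted p = 0.128), without c3 (0.0842) and without the first (0.0703) or the second (0.0567) library at 20 DAF. It was also lost when only the groups compared were fitted (limma adjusted p = 0.1285). The serpin Phvul.009G062300, of a family of suicide-type inhibitors, stood between 9.94 and 58.8 TPM in all libraries. In grain at 20 against 10 DAF it was not called as deposited (log2 difference 0.44). After median-ratio scaling it was called higher there (1.71). Its lowest value was in pod 15 DAF replicate 3, the library with the low TPM sum. Phvul.003G129800, related to inter-alpha-trypsin inhibitor heavy chains, averaged 4.62 ± 1.77 TPM in grain at 20 DAF and 12.8 ± 1.79 TPM at 10 DAF (SD, n = 3 each), a fall (log2 difference -1.34, limma adjusted p = 0.00482) that was not called after median-ratio scaling (-0.21). Of the other potato type I genes only Phvul.007G125500 was tested, and it had at most 0.826 TPM in grain and up to 11.9 TPM in pod.

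**Figure D4:**
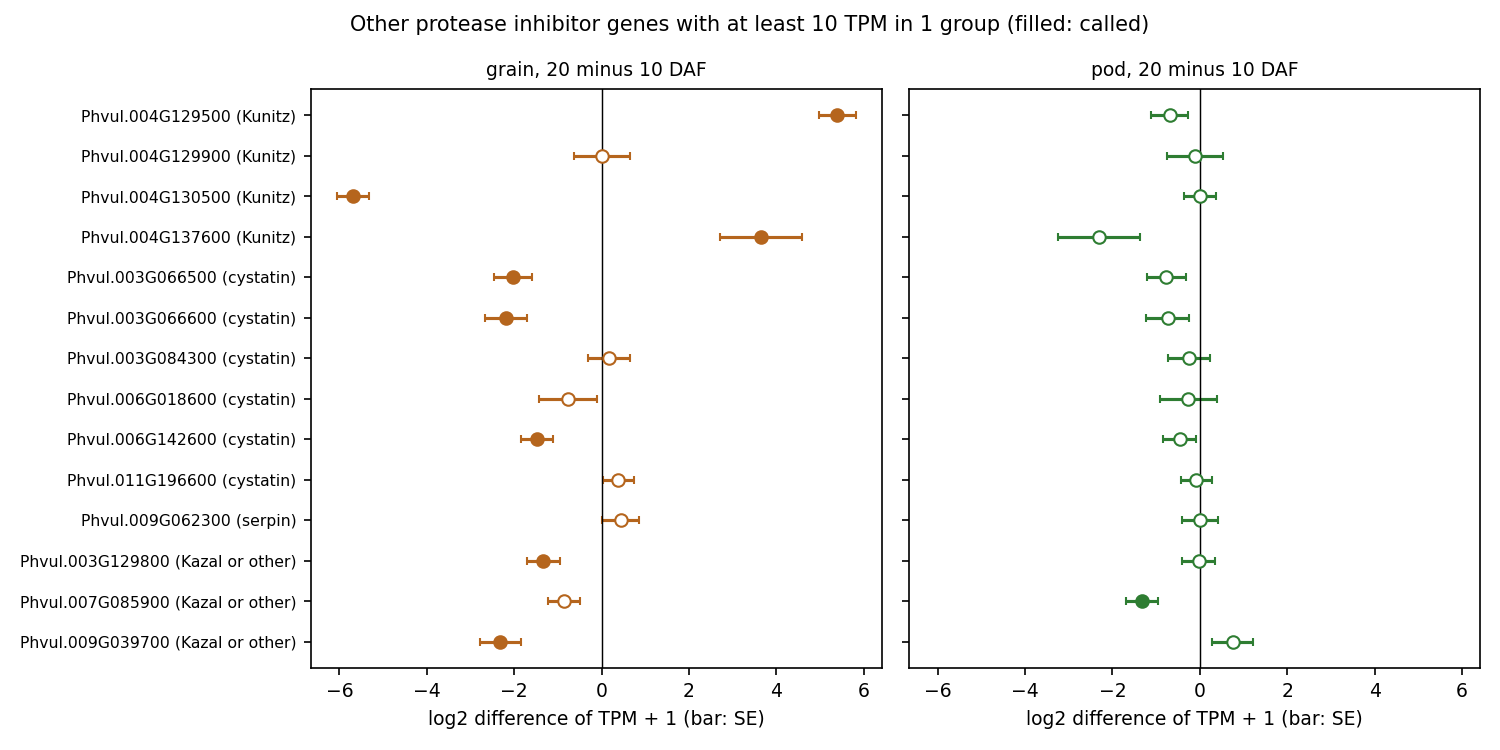
log2 difference of TPM + 1 (points) with its standard error (bars) at 20 minus 10 DAF in grain (left) and pod (right), for the 14 other inhibitor genes with at least 10 TPM in a group. Filled points were called. In grain 2 Kunitz genes are called upwards and 6 of the shown genes downwards, and in pod a Kazal-type gene is called downwards. Of all genes tested, 2.67% were called higher and 52.9% lower in grain, and 5.38% and 6.72% in pod. After median-ratio scaling the downward grain calls of Phvul.003G066500, Phvul.003G066600, Phvul.003G129800 and Phvul.006G142600 were lost.

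Proteases of the families that such inhibitors act on were counted in the same way. Phvul.008G057001, Phvul.002G152400, Phvul.009G120000, Phvul.009G227100, Phvul.009G067300 and Phvul.002G239300 were named for the largest called differences in this same fit. Their p-values are therefore descriptive and not separate tests. Subtilases are secreted serine proteases of the subtilisin type. Of 64, 41 were tested, and in grain at 20 against 10 DAF 1 was higher and 25 lower, where 2.67% of all genes were higher and 52.9% lower (after median-ratio scaling, 4 higher and 12 lower of 40, where 8.57% and 16.8% of all genes were). In pod 1 was higher and 11 lower, where 5.38% and 6.72% of all genes were. The median difference was -1.46 in grain, against -1.08 for all genes, and -0.55 in pod, against 0.10. The most abundant in grain, SBT5.2 (Phvul.009G018500), had 83.0, 159 and 278 TPM at 20 DAF, against 2323, 1414 and 1679 TPM at 10 DAF (log2 difference -3.51, SE 0.63, limma adjusted p = 0.000129). SBT1.3 (Phvul.008G057001) averaged 10.2 ± 6.11 TPM at 20 DAF and 345 ± 92.2 TPM at 10 DAF (SD, n = 3 each; log2 difference -5.05, limma adjusted p = 7.31e-09).

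In pods the leading subtilase was ARA12 (Phvul.001G026100), a protease known from the cell wall and seed coat mucilage of Arabidopsis, with 938 to 4563 TPM in pod libraries and 16.8 to 110 TPM in grain libraries. Another gene described as ARA12 (Phvul.002G152400) rose in pod, with 30.9, 51.0 and 15.2 TPM at 20 DAF, against 0.019, 0.122 and 0.084 TPM at 10 DAF (log2 difference 4.80, SE 0.65, limma adjusted p = 7.29e-05). SLP2 (Phvul.009G120000) fell in pod, with 2.48, 5.68 and 13.8 TPM at 20 DAF. At 10 DAF it had 82.8, 72.9 and 76.7 TPM there (log2 difference -3.48, SE 0.44, limma adjusted p = 3.19e-05). Phvul.002G152400 and SLP2 were named for the largest called differences in pod, so their p-values are descriptive.

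Genes described as cysteine proteases, called papain-type here, include the papain-type enzymes that cystatins inhibit. They also include genes described as calpain-type (DEK1), ESD4 and OTU-like proteases, which were not set apart. Of these 61 genes, 36 were tested. In grain at 20 against 10 DAF 2 were higher and 19 lower, where 2.67% and 52.9% of all genes were, and after median-ratio scaling 4 were higher and 3 lower, where 8.57% and 16.8% were. In pod 4 were higher and 3 lower, where 5.38% and 6.72% of all genes were. The median difference was -1.24 in grain, against -1.08 for all genes, and 0.42 in pod, against 0.10. Phvul.007G099600, the protease gene among those most like CYS2, had 5514, 9289 and 2966 TPM in grain at 20 DAF. At 10 DAF it had 161, 461 and 577 TPM there (log2 difference 3.93, SE 0.53). This gene was picked by its likeness to CYS2 and by its rise, so no test is given for it. In pods it stood between 0.486 and 4.39 TPM.

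Phvul.009G227100, Phvul.009G067300 and Phvul.002G239300 were named for the largest called differences, so their p-values are descriptive. The senescence-associated aleurain-like protease (Phvul.009G227100) had the highest mean of the papain-type list in pod at 20 DAF. It rose there, with 3544, 1339 and 2894 TPM at 20 DAF, against 189, 456 and 425 TPM at 10 DAF (log2 difference 2.85, SE 0.60, limma adjusted p = 0.00341), but was not called when only these 2 groups were fitted (limma adjusted p = 0.0651). A gene described as RD21 (Phvul.009G067300), a protease with a granulin domain, fell in grain. It had 8.0, 8.94 and 10.5 TPM at 20 DAF, against 76.7, 30.2 and 56.9 TPM at 10 DAF (log2 difference -2.36, SE 0.43, limma adjusted p = 0.000158). In pod it was also lower at 20 than at 10 DAF (log2 difference -1.99, limma adjusted p = 0.00411). The pod call was lost when only the groups compared were fitted (limma adjusted p = 0.103). Another gene described as RD21, Phvul.001G024500, had its highest group mean, 762 TPM, in pod at 20 DAF. Another granulin-repeat protease, Phvul.002G239300, was highest in grain at 15 DAF, at 679 ± 129 TPM (SD, n = 3). In pod it fell, with 10.6, 3.28 and 8.12 TPM at 20 DAF, against 34.6, 51.1 and 22.3 TPM at 10 DAF (log2 difference -2.19, limma adjusted p = 0.0478), a call lost when any of the 6 libraries concerned was left out (limma adjusted p = 0.0543 to 0.159).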

How the data were processed

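Per the labels' protocols, RNA was extracted with TRIzol and sequencing libraries were made with a SMARTER mRNA kit. TPM per gene were deposited by the authors for 27420 genes in 18 libraries, and 4644 of the genes have no description. How reads were aligned, counted and divided among similar genes, and on which build, is not stated in the sources at hand. Since TPM carries no read totals, no counting interval was computed. The design text speaks of 4 periods, but the labels give 3 stages, which were followed. Separate plants are not named as the source of a group's libraries, so the p-values cover the spread among these samples only, and that spread may be technical.

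Values were tested as log2(TPM + 1) with limma 3.58.1 in R 4.3.3, for the 19861 genes that reached 1 TPM in 3 or more libraries, with 6 group means, an intensity trend in the variance and 12 residual degrees of freedom. With 3 libraries a group, an exact permutation test of a single value cannot reach below p = 0.1, so none was used. Median-ratio scaling used 11276 genes. On simulated data for grain at 20 against 10 DAF over 19861 genes, 56 of 100 changes of 1.5 on the log2 scale and 95 of 100 of 3 were recovered, with 0 wrong signs and 11 false calls. The changed genes were all well expressed in grain at 10 DAF, the noise was normal, and no other gene differed between these stages. In the real comparison 55.6% of all genes were called, so these rates may not hold there or for genes of low level.

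Gene lists were search patterns on the descriptions. The members and lists were chosen with earlier results of these data known. The text names, beside the 3 genes, the 5 described genes most like each, every other inhibitor with a group mean of at least 10 TPM, and in each protease list the 2 most abundant genes and the largest called difference each way at 20 against 10 DAF, with at least 10 TPM. The inhibitor Phvul.007G125500 was named in addition, after its values were seen. Other settings changed the pseudocount (0.1 TPM), the filter (none, or 5 TPM), the scaling (median ratio, equal column sums, without the 50 most abundant genes), the fit (no intensity trend, only the groups compared, a block for the replicate number), the minimum difference (none) and the libraries, by leaving out each in turn.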

Additional observations from a re-analysis of the deposited data

Results flagged for a closer look

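In 5 of the 21 other inhibitor genes tested, the change between 10 and 20 DAF differed between grain and pod by a limma interaction test, adjusted over all genes. Of all genes tested, 56.5% were called in the same test, 3.69% upwards and 52.8% downwards. Grain changed upwards relative to pod for the Kunitz genes Phvul.004G129500 (log2 difference of changes 6.08, SE 0.60, limma adjusted p = 1.34e-06) and Phvul.004G137600 (5.96, SE 1.34, limma adjusted p = 0.00183). Grain changed downwards relative to pod for the Kunitz gene Phvul.004G130500 (-5.69, SE 0.53, limma adjusted p = 7.62e-07), which was listed at 0 in every pod library, and for the Kazal-type gene Phvul.009G039700 (-3.07, SE 0.66, limma adjusted p = 0.00135). Phvul.003G129800, related to inter-alpha-trypsin inhibitor heavy chains, also changed downwards (-1.31, SE 0.53, limma adjusted p = 0.0424), but after median-ratio scaling its difference was -0.02.

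The same difference of changes was 9.97 (SE 1.14) for the Kunitz inhibitor Phvul.004G129600, 8.90 (SE 0.65) for the potato type I inhibitor and 2.81 (SE 0.67) for CYS2, given without a test because the 3 genes were chosen by their levels.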

How the results depend on the processing

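The 3 genes were followed as log2 differences with 0.1 TPM added, under each other scaling, and with each library left out in turn. The other filters and fits were not run for them. All 190 values of differences of at least 1 in size kept their sign. Since the genes were chosen by their levels, this is a description and not a test. After median-ratio scaling the Kunitz inhibitor differed by 3.67 at 15 against 10 DAF and 5.76 at 20 against 10 DAF in grain, the potato type I inhibitor by 10.52 at 20 against 10 DAF in grain and 11.38 in grain against pod at 20 DAF, and CYS2 by 1.195 at 20 against 15 DAF and 4.43 at 20 against 10 DAF in grain, and by 9.71 and 11.18 in grain against pod at 15 and 20 DAF. Without the 50 most abundant genes, none of them among the 3, the Kunitz values were 3.90, 5.75 and, for grain against pod at 15 DAF, 4.99. The potato type I values were then 8.29 at 15 against 10 DAF and 10.55 at 20 against 10 DAF in grain, and 9.08 and 11.41 in grain against pod at 15 and 20 DAF, and those of CYS2 were 0.94 at 20 against 15 DAF, 4.27 at 20 against 10 DAF, and 9.90 and 11.20 in grain against pod at 15 and 20 DAF. With 0.1 TPM added, grain against pod at 15 DAF was 5.30 for the Kunitz inhibitor, and at 10, 15 and 20 DAF it was 2.26, 9.69 and 11.21 for the potato type I inhibitor and 8.70, 10.11 and 10.96 for CYS2. In pod it was then 0.95 for the potato type I inhibitor at 20 against 10 DAF, and 0.96 and 0.88 for CYS2 at 15 and at 20 against 10 DAF. The small Kunitz difference at 20 against 15 DAF in pod (0.66) was -0.16 without the third pod library at 20 DAF.

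Counts are given as higher and lower. Shares over all genes were computed only as deposited and after median-ratio scaling. Counts under other settings, here and below, therefore cannot be set against all genes. After median-ratio scaling the shares were 8.57% and 16.8% in grain at 20 against 10 DAF, and 14.4% and 20.2% in grain against pod at 20 DAF. For the higher direction they were 9.17% in the difference of changes and 4.63% in pod at 20 against 10 DAF. Median-ratio scaling gave 5 and 2 other inhibitors, 4 and 12 subtilases and 4 and 3 papain-type proteases in grain at 20 against 10 DAF, 11 and 1 other inhibitors in grain against pod at 20 DAF, 7 higher in the difference of changes, and 2 higher subtilases in pod. Leaving out the 50 most abundant genes gave 5 and 2, 3 and 13, and 4 and 4 in grain, 6 higher in the difference of changes, and in pod 2 higher subtilases and 7 higher papain-type proteases. With equal column sums 3 subtilases and 8 papain-type proteases were higher in pod. A fit on only the groups compared left 0 lower other inhibitors, 4 lower subtilases and 0 and 1 papain-type proteases in pod, 1 higher papain-type protease in grain, and 1 lower other inhibitor in grain against pod at 10 DAF. In pod 2 other inhibitors were lower with 0.1 TPM added, and 1 was higher with no minimum difference. Causes of these shifts were not tested.

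With each library left out in turn, other inhibitors in pod ranged from 0 to 1 higher and 0 to 2 lower, and those lower in grain against pod at 10 DAF from 0, without the third grain library, to 2. Higher subtilases ranged from 0, without the third library at 20 DAF, to 1 in grain, and from 1 to 5, without the second library at 20 DAF, in pod. Higher papain-type proteases ranged from 1 to 2 in grain and from 2, without c1 or the first library at 20 DAF, to 8, without c2, in pod. Genes called downwards in the difference of changes ranged from 2 to 5, the highest without the second grain library at 20 DAF. Of 65 called differences of single named genes, 44 were called in every setting. These include protease genes named for a large called difference in the same fit. The count therefore does not measure how stable calls are over all genes. The differences in grain against pod at 20 DAF of the serpin Phvul.009G062300 (-0.04) and of cystatin B Phvul.011G196600 (-0.35) turned to 1.37 and 1.07 after median-ratio scaling.

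In the comparisons checked, same-numbered libraries of grain at 20 and 10 DAF deviated with r = 0.02, 0.20 and 0.17, and those of grain and pod at 20 DAF with r = -0.03 to 0.01. In grain replicates 2 and 3, but not replicate 1, lay closest to their own number, so the numbers were not taken to pair the samples. With a replicate block on the 15 libraries other than pod at 10 DAF, whose columns carry no usable numbers, 2 and 8 other inhibitors, 1 and 24 subtilases and 2 and 20 papain-type proteases were called in grain, and 7 and 4 other inhibitors in grain against pod at 20 DAF. No call of a named gene changed under the block. The depth behind low pod values is unknown, which limits what they can show.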
